A study of Mus musculus with 18 samples.

Results

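The Ms4a genes encode small proteins that cross the membrane several times, and 9 of them, Ms4a4a, Ms4a4b, Ms4a4c, Ms4a6b, Ms4a6c, Ms4a6d, Ms4a7, Ms4a8a and Ms4a14, were followed here in bone marrow-derived macrophages (BMDMs) by RNA-seq. The 9 genes were taken by name from the 25926 genes listed, and they were named with earlier results of the same samples in view, so that their levels and differences between groups are given as a description without a test. Expression is given as FPKM, a fragment count corrected for gene length and for the size of the library, and levels can therefore be set side by side between genes. BMDMs were grown from the marrow of C57BL/6J mice with 50 ng/mL M-CSF over 7 days and placed above renal tubular epithelial cells (TECs) in a Transwell with 0.4 μm pores, in 3 groups of 6 samples. In the NC group the BMDMs received PBS and the TECs no crystals. In the COM group the BMDMs also received PBS, while the TECs were exposed to calcium oxalate monohydrate (COM) crystals at 100 μg/mL for 24 h. In the COM+Met group the TECs were exposed to COM in the same way and the BMDMs received 5 mM Met for 24 h, an agent that the labels do not spell out. All 3 groups thus contained TECs and M-CSF, and there was neither a group with BMDMs alone nor one with Met but without COM. The comparisons ask how macrophage expression differs when the neighbouring epithelium has met crystals, and how it differs when Met is added. It is not stated whether replicates were separate mice or cultures, so p-values reflect only the variation among the samples at hand, part or all of which may be technical.

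The best known member of the family is CD20, the product of Ms4a1, which is the B cell surface protein bound by rituximab, and Ms4a2 encodes the β chain of the high-affinity IgE receptor of mast cells and basophils. Several of the other proteins are found on cells of the myeloid lineage, where they sit beside immune receptors and modify their signalling. Ms4a4a is known on macrophages, in which it associates with the β-glucan receptor dectin-1, Ms4a7 is widely used as a marker of macrophages, and Ms4a4b was described in T cells. The roles of Ms4a4c, Ms4a6b, Ms4a6c, Ms4a6d, Ms4a8a and Ms4a14 are less well defined.

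Libraries of the same group were not alike. Samples COM-4, COM-5 and COM-6 stood above COM-1, COM-2 and COM-3 for 7 of the 9 members and for 10 of 13 interferon-stimulated genes used as a reference. NC-5 and NC-6 stood below the other 4 NC samples for 9 of 9 members and 13 of 13 reference genes. How many of all genes split in these ways was not counted, so nothing particular to the members or reference genes is read from the counts. COM-6 in turn differed from COM-4 and COM-5 in some of these genes, with Isg15, which encodes an interferon-induced ubiquitin-like protein, at 327 FPKM beside 1143 and 1068. The labels name no batch behind these subsets, and differences of the members are given with and without them. Of 8 macrophage markers, 8 averaged 1 FPKM or more in every group, with a summed level of 10601 to 17050 FPKM over the 18 samples, most of it from the lysozyme gene Lyz2. In COM against NC 3 of the 8 were called higher and 0 lower, beside 5.99% and 11.7% of all genes tested. The 3 were Adgre1, which encodes F4/80, with a log2 difference of 2.36, the Fc receptor gene Fcgr1, with 3.05, and Cd14, the lipopolysaccharide co-receptor, with 2.86 (limma adjusted p = 1.39e-08, 3.52e-06 and 0.000141). Mertk was lower in COM but short of 2-fold, with a log2 difference of -0.76 (limma adjusted p = 0.0193), and the groups overlapped. This difference leaned on NC-5 and NC-6, which held 31.4 and 29.8 FPKM of Mertk. The remaining NC libraries held 10.5 to 15.3 FPKM, beside 8.62 to 11.7 FPKM for COM. The read depth is unknown from FPKM, and no counting interval can be given. Sums of FPKM over all genes, which are not depth, lay between 380731 and 449186.

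The genes form a single cluster on chromosome 19, at chr19:10962293-11640851 of GRCm38 in the GENCODE M21 annotation, which spans 678559 bp from Ms4a10 to Ms4a3 and holds 21 protein-coding Ms4a genes. The submitters' processing notes name other builds, so these positions come from the annotation and not from the deposited values. Ms4a8a, at chr19:11067471-11081102, lies apart from the other members, near the Ms4a10 end of the cluster on the minus strand. Ms4a14 (chr19:11301249-11314454) and Ms4a7 (chr19:11321039-11336146) follow on the same strand. Then come 5 members on the plus strand, Ms4a4a (chr19:11375523-11392790), Ms4a4c (chr19:11404770-11427246), Ms4a4b (chr19:11443553-11467055), Ms4a6c (chr19:11469366-11482192) and Ms4a6b (chr19:11516512-11531256). Ms4a6d lies at chr19:11586604-11604849 on the minus strand.

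**Figure D1:**
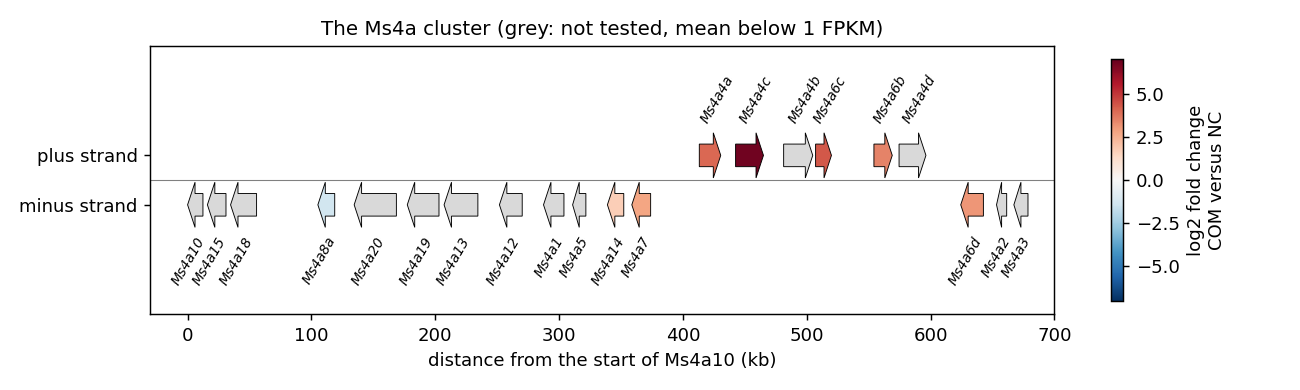
Map of the 21 Ms4a genes, with distance from the start of Ms4a10 in kb on the horizontal axis and the strand on the vertical axis. Each arrow spans a gene and points in the direction of transcription, and its colour gives the log2 difference of COM minus NC, from -1.34 for Ms4a8a to 6.80 for Ms4a4c, with grey for genes under the expression filter of 1 FPKM.

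Some members are near copies of each other. The coding sequences of Ms4a4b and Ms4a4c were 91.8% identical over 681 aligned bases, those of Ms4a6b and Ms4a6c 85.3%, those of Ms4a6b and Ms4a6d 81.3% and those of Ms4a6c and Ms4a6d 79.1%. Other pairs, compared without Ms4a14, reached at most 68.4%. Of all 50-base windows in the transcripts, 8.48% of those of Ms4a4c, 6.08% of Ms4a6c, 5.66% of Ms4a6b, 4.19% of Ms4a4b and 2.92% of Ms4a6d also occur in another Ms4a gene, and 0 in Ms4a4a, Ms4a7, Ms4a8a and Ms4a14. How fragments that fit several genes were assigned is not given in the sources used here, so the values of Ms4a4b, Ms4a4c, Ms4a6b, Ms4a6c and Ms4a6d are less certain in this respect. In the annotation BE692007 also overlaps Ms4a6c over 12027 bp, the antisense gene Gm19261 overlaps Ms4a6b over 442 bp and the pseudogene Gm5692 overlaps Ms4a4c over 235 bp, and it is not stated whether fragments were counted by strand.

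Because these copies lie next to each other and differ in level, the 250 bases before their start sites are shown, from RefSeq on GRCm38.p6, all on the plus strand and written 5′ to 3′. Ms4a4c is at chr19:11407411-11407660, Ms4a4b at chr19:11443308-11443557, Ms4a6c at chr19:11469118-11469367 and Ms4a6b at chr19:11518309-11518558. The start sites are those of RefSeq. For Ms4a4c and Ms4a6b the bases shown lie inside the span that GENCODE M21 gives the gene, and not before it. Capitals mark GAGGAA, the core of the binding motif of the macrophage factor PU.1, in Ms4a4c and Ms4a4b, and GAAANNGAA, a shorter form of the interferon response element, in Ms4a6c and Ms4a6b.
Ms4a4c: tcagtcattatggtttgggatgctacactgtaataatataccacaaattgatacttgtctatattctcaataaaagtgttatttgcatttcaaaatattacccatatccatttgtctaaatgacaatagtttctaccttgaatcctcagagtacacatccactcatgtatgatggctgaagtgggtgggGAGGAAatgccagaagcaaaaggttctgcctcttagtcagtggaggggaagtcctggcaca
Ms4a4b: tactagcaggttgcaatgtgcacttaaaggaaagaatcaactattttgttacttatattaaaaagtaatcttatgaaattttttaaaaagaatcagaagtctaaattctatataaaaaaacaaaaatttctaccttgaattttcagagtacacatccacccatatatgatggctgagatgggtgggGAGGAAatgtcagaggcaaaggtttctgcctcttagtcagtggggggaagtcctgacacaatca
Ms4a6c: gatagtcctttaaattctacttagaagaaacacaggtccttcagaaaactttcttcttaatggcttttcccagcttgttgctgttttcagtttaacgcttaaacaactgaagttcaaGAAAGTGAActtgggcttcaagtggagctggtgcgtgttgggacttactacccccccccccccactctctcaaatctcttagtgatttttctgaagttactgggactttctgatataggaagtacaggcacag
Ms4a6b: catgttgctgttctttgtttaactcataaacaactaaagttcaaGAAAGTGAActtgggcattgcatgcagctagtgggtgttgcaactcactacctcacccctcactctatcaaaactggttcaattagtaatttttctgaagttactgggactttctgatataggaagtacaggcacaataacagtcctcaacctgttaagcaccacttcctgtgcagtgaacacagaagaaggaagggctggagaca

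The 250 bases of Ms4a6c and Ms4a6b were 85.1% identical over 175 aligned bases, with a shared run of 48 bases. Those of Ms4a4c and Ms4a4b were 80.1% identical over 231 aligned bases, with a shared run of 20 bases. The PU.1 core begins 61 bases before the RefSeq start of Ms4a4c and 64 bases before that of Ms4a4b. The GAAANNGAA match begins 133 bases before the RefSeq start of Ms4a6c and 206 bases before that of Ms4a6b.

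RefSeq windows of 300 bases were found for 8 of the 9 members, with 2 windows for Ms4a7, and none was matched for Ms4a6d. Motifs were searched on both strands, only in the 250 bases of each window before the start, for members and all windows alike. GAGGAA was there in 3 of 8 members, Ms4a4c, Ms4a4b and Ms4a14, and in 23.3% of 32851 promoter windows. The full core of the interferon-stimulated response element was in 0 of 8 (2.98% of all windows). The gamma-activated site, TTCNNNGAA, was in 0 of 8 (7.02%), as were both NF-κB motifs searched (0.14% and 0.0852%). The AP-1 motif TGAGTCA was in 2 of 8, Ms4a14 and Ms4a8a (4.46%). GAAANNGAA, which is contained in the full element and was added to the search after the sequences had been read, was in Ms4a6c, Ms4a6b and Ms4a7, that is 3 of 8, beside 7.13% of all windows. A match is a run of letters and not a measured binding site.

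**Figure D2:**
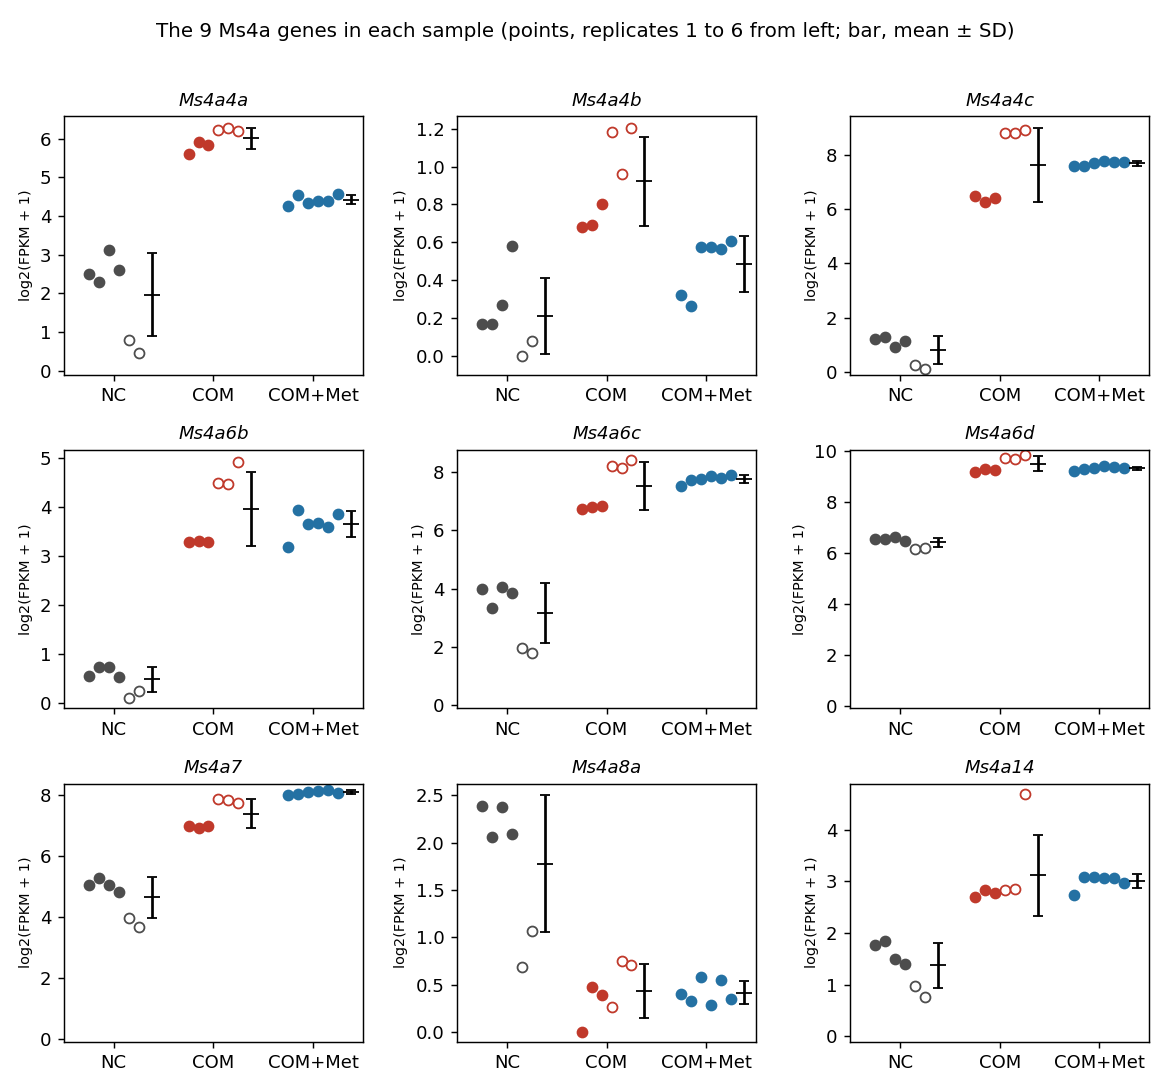
Expression of the 9 members as log2(FPKM + 1) in each of 18 samples, grouped as NC, COM and COM+Met, with replicates 1 to 6 from left to right in each group and bars for the mean ± SD of 6 samples. Open points are NC-5, NC-6, COM-4, COM-5 and COM-6, the samples that stood apart from the rest of their group, and 8 members are higher in all COM than in all NC samples.

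Next, COM was compared with NC. Except for Ms4a8a, every member was higher in each of the 6 COM samples than in each of the 6 NC samples, from Ms4a6d, the most abundant, to Ms4a4b, which stayed near 1 FPKM. Differences are given as the log2 difference of the means of log2(FPKM + 1) with its standard error (SE), which understates the change of low genes. A gene was called when its change was at least 2-fold with an adjusted p below 0.05 by limma over all genes averaging 1 FPKM or more. Of 8 members past this filter, 7 were called higher and 1, Ms4a8a, lower, while the shares among all 10900 genes tested were 5.99% higher and 11.7% lower (17.7% either way). The groups did not overlap for 8 of 9 members, all of them higher, and for 38.2% of the genes tested, with 8.6% higher and 29.7% lower. Nothing is read from these counts, since the members were chosen on these samples. In bulk RNA, a change in the number of cells that express a gene and a change in RNA per cell cannot be told apart.

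In the Ms4a4 subgroup, Ms4a4c had the largest difference. Its NC samples lay between 0.0647 and 1.41 FPKM, with a median of 1.04, and the lowest values, 0.186 and 0.0647, were those of NC-5 and NC-6. In COM it stood at 87.6, 76.5 and 84.2 FPKM in COM-1 to COM-3 and at 451, 448 and 484 FPKM in COM-4 to COM-6. The COM group thus split into a lower and a higher subset, each far above NC. The log2 difference was 6.80 (SE 0.52), and it was 5.57 (SE 0.27) without COM-4, COM-5 and COM-6 and 6.48 (SE 0.60) without NC-5 and NC-6.

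Ms4a4a, the macrophage protein linked to dectin-1, had an NC range of 0.376 to 7.75 FPKM with a median of 4.27, and a COM range of 47.5 to 77.1 FPKM with a median of 66.1. COM-4 to COM-6 were above the other COM samples here too, but by less than for Ms4a4c, at 72.6 to 77.1 beside 47.5 to 59.6 FPKM. The log2 difference of Ms4a4a was 4.05 (SE 0.40), and it was 3.38 (SE 0.19) without NC-5 and NC-6 and 3.82 (SE 0.56) without COM-4 to COM-6. Ms4a4b, the T cell member and close copy of Ms4a4c, lay between 0 and 0.494 FPKM in NC and between 0.605 and 1.31 FPKM in COM. Its mean was below the filter, and it was not fitted. Taken as a percentage of the Ms4a4c level, Ms4a4b was 0.690 to 0.883% in COM-1 to COM-3 and 0.212 to 0.281% in COM-4 to COM-6, so the 2 genes did not keep a fixed ratio. In the same samples 7 T cell markers together made up 0.597 to 4.17 FPKM in NC and 0.313 to 1.29 FPKM in COM, with 3 of the 7 at 0 in all COM samples.

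The 3 Ms4a6 genes shared a direction and differed widely in level. Ms4a6d was the most abundant member in every group, at 70.8 to 96.4 FPKM in NC (median 88.7) and 572 to 925 FPKM in COM (median 726). By mean FPKM it moved from rank 694 of 25926 genes in NC to rank 64 in COM, and its log2 difference was 3.09 (SE 0.15), or 2.97 without NC-5 and NC-6 and 2.83 without COM-4 to COM-6. Ms4a6c stood at 2.43 to 15.7 FPKM in NC (median 11.3), and at 105 to 112 FPKM in COM-1 to COM-3 and 282 to 342 FPKM in COM-4 to COM-6. Its log2 difference was 4.36 (SE 0.48), 3.62 (SE 0.54) without the 3 higher COM samples and 3.71 (SE 0.38) without NC-5 and NC-6. Ms4a6b remained the least abundant of the 3, with 0.0763 to 0.672 FPKM in NC, 8.66 to 8.88 FPKM in COM-1 to COM-3 and 21.1 to 29.2 FPKM in COM-4 to COM-6. The log2 difference of Ms4a6b was 3.47 (SE 0.29), 2.80 (SE 0.15) without COM-4 to COM-6 and 3.31 (SE 0.34) without NC-5 and NC-6.

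Ms4a7 was already well expressed in NC, at 11.6 to 37.3 FPKM (median 29.6), and its COM samples fell into the same subsets, at 118 to 125 and 212 to 229 FPKM. The log2 difference of Ms4a7 was 2.74 (SE 0.30), and it was 2.33 (SE 0.23) without NC-5 and NC-6 and 2.31 (SE 0.35) without COM-4 to COM-6. Ms4a14 lay at 0.690 to 2.60 FPKM in NC. The COM samples 1 to 5 were close together, between 5.45 and 6.22 FPKM, whereas COM-6 reached 24.96 FPKM. The log2 difference was 1.74 (SE 0.33), and without COM-6 it was 1.42 (SE 0.18), without COM-4 to COM-6 1.39 (SE 0.23) and without NC-5 and NC-6 1.48 (SE 0.36). With a pseudocount of 5 in place of 1 it was 0.96 and Ms4a14 was no longer called.

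Ms4a8a was the member with the opposite direction, at low levels throughout. NC-1 to NC-4 held 3.16 to 4.23 FPKM, NC-5 and NC-6 held 0.611 and 1.09 FPKM, and the COM samples lay between 0 and 0.680 FPKM. The groups overlapped through NC-5. The log2 difference was -1.34 (SE 0.29), -1.79 (SE 0.16) without NC-5 and NC-6 and -1.48 (SE 0.39) without COM-4 to COM-6. With a pseudocount of 5 in place of 1 it was -0.51 and was no longer 2-fold.

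**Figure D3:**
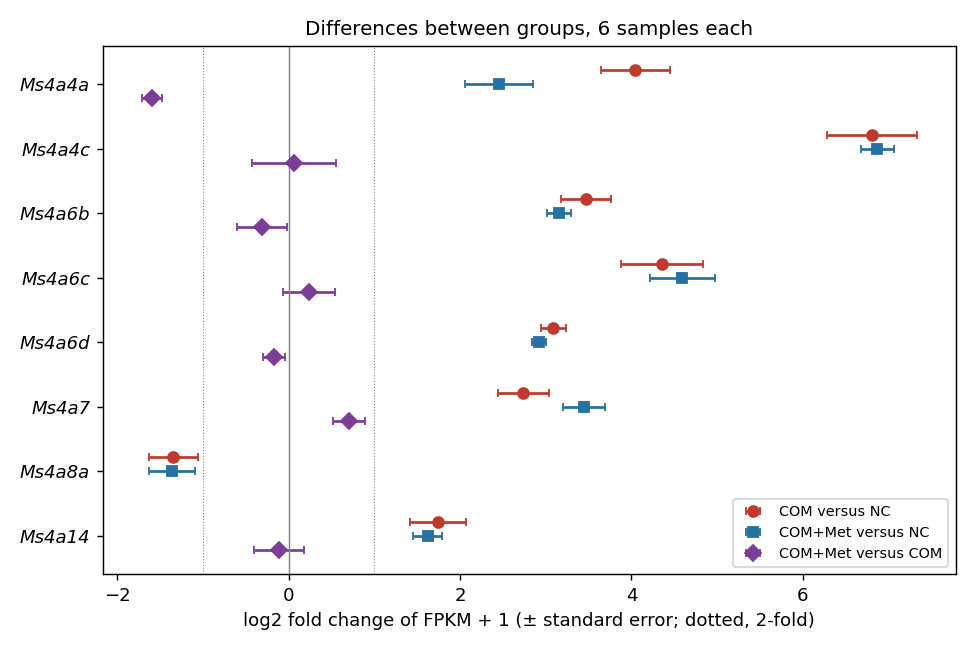
Log2 difference, on the log2(FPKM + 1) scale, of each tested member for COM minus NC, COM+Met minus COM and COM+Met minus NC, with bars for ± SE from limma over 12 samples and dotted lines at 2-fold. COM minus NC runs from -1.34 for Ms4a8a to 6.80 for Ms4a4c, and in COM+Met minus COM the largest difference is that of Ms4a4a at -1.59.

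The comparison of COM+Met with COM separated members that had moved together between NC and COM. Ms4a4a and Ms4a4b were lower in all COM+Met samples than in all COM samples, Ms4a7 was higher in all of them, and the other 6 members overlapped. Of 7 members past the filter, 0 were called higher and 1, Ms4a4a, was called lower, beside 0.608% and 1.61% of 10364 genes tested (2.22% in either direction). Groups did not overlap for 3 of 9 members and for 11.2% of the genes tested, with 5.83% higher and 5.34% lower. COM+Met samples share their COM comparator with the comparison above, so the pair of comparisons is not independent.

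Ms4a4a stood at 18.3 to 22.7 FPKM in the COM+Met samples (median 20.0), below the lowest COM sample, at 47.5 FPKM, and above the highest NC sample, at 7.75 FPKM. Its log2 difference from COM was -1.59 (SE 0.12), and -1.36 (SE 0.08) without COM-4, COM-5 and COM-6. Ms4a4b lay at 0.202 to 0.521 FPKM in COM+Met. Ms4a7, in contrast, reached 253 to 281 FPKM (median 270), above the highest COM sample, at 229 FPKM. The log2 difference of Ms4a7 was 0.70 (SE 0.18), and 1.13 (SE 0.04) without COM-4, COM-5 and COM-6, where it was called. The ratio of Ms4a7 to Ms4a4a, both per gene length, was 1.97 to 3.09 in COM and 11.6 to 14.1 in COM+Met, with no overlap, while in NC it ranged from 4.14 to 30.9.

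For the other members the answer depended on which COM samples were taken. Ms4a4c lay at 190 to 218 FPKM in COM+Met (median 208), so that all 6 samples fell into the gap between COM-1 to COM-3 and COM-4 to COM-6. The log2 difference of Ms4a4c from COM was 0.06 (SE 0.49), and 1.30 (SE 0.06), called higher, without COM-4 to COM-6, whereas leaving out COM-2 alone turned it to -0.20. Ms4a6c, at 184 to 235 FPKM, fell into the same gap, with a log2 difference of 0.24 (SE 0.30), or 0.97 (SE 0.07) without those 3 samples. All COM+Met samples lay between the COM subsets for 2 of the 9 members, Ms4a4c and Ms4a6c. This was so for 9 of the 13 reference genes, again without a count over all genes. Of those 9, Ifit3, an interferon-induced antiviral gene, stood at 142 to 149 FPKM in COM-1 to COM-3. It stood at 670 to 720 FPKM in COM-4 to COM-6 and 446 to 541 FPKM in COM+Met.

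Ms4a6b lay at 8.07 to 14.4 FPKM in COM+Met, with a log2 difference of -0.31 (SE 0.29) from COM. Ms4a6d lay at 599 to 675 FPKM, with a difference of -0.17 (SE 0.13), and Ms4a14 at 5.67 to 7.48 FPKM, with a difference of -0.11 (SE 0.29). The signs of these 3 differences turned to 0.36, 0.09 and 0.23 without COM-4 to COM-6, and that of Ms4a14 to 0.20 without COM-6 alone. Ms4a8a lay between 0.218 and 0.499 FPKM, within the COM range, and was below the filter. Spread was smaller in COM+Met than in COM for all 9 members, with an SD of log2(FPKM + 1) of 0.08 against 1.35 for Ms4a4c and 0.06 against 0.47 for Ms4a7.

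COM+Met was also compared with NC, and here again Ms4a4c and Ms4a6c had the largest differences. Ms4a4c was 6.87 higher on the log2 scale (SE 0.19), Ms4a6c 4.60 (SE 0.38), Ms4a7 3.44 (SE 0.24), Ms4a6b 3.16 (SE 0.14), Ms4a6d 2.92 (SE 0.08), Ms4a4a 2.45 (SE 0.40) and Ms4a14 1.63 (SE 0.17), and Ms4a8a differed by -1.36 (SE 0.27). Without NC-5 and NC-6 the values were 6.55 for Ms4a4c, 3.95 for Ms4a6c, 3.03 for Ms4a7, 3.003 for Ms4a6b, 2.80 for Ms4a6d, 1.79 for Ms4a4a, 1.37 for Ms4a14 and -1.81 for Ms4a8a. In this comparison 7 of 8 tested members were called higher and 1 lower, beside 5.66% and 13.6% of 10786 genes (19.3% in either direction). The groups did not overlap for 8 of 9 members, with Ms4a4b as the exception, and for 57.6% of the genes tested, with 14.1% higher and 43.6% lower.

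**Figure D4:**
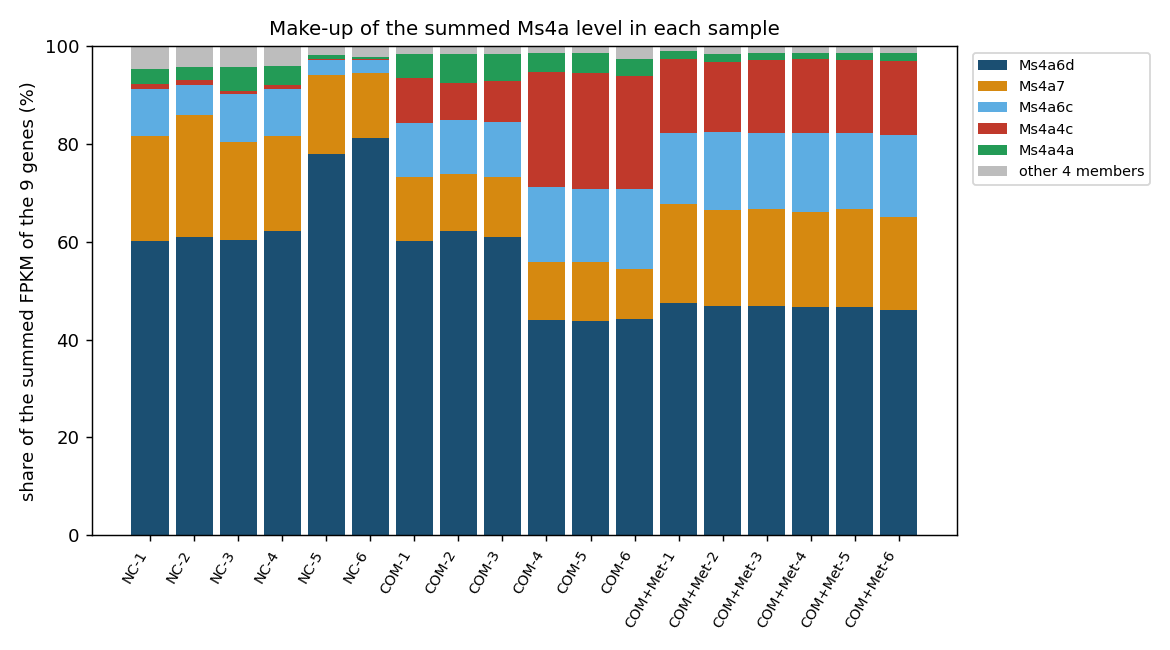
Composition of the summed FPKM of the 9 members in each of the 18 samples, as a percentage of the sum, with a colour for each of the 5 most abundant members and grey for the other 4. Ms4a6d is the largest share throughout, at 60.2 to 62.2% in NC-1 to NC-4, 60.1 to 62.1% in COM-1 to COM-3, 43.8 to 44.2% in COM-4 to COM-6 and 46.1 to 47.6% in COM+Met, with 78.0 and 81.2% in NC-5 and NC-6.

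The composition of the family differed between the subsets of samples as well as between groups. Summed over the 9 members, FPKM was 87.8 to 160 in NC, 952 to 2091 in COM and 1259 to 1444 in COM+Met. Ms4a6d contributed 67.2% ± 9.71 (SD, n = 6) of the sum in NC, 52.5% ± 9.38 in COM and 46.8% ± 0.471 in COM+Met. Its ranges in NC-1 to NC-4 (60.2 to 62.2%) and COM-1 to COM-3 (60.1 to 62.1%) overlapped, so the NC and COM means were set apart by NC-5 and NC-6, at 78.0 and 81.2%, and by COM-4 to COM-6, at 43.8 to 44.2%. The Ms4a4c share was 0.587% ± 0.372 in NC, 15.9% ± 8.26 in COM and 14.9% ± 0.312 in COM+Met, and within COM it was 7.61 to 9.20% in COM-1 to COM-3 and 23.2 to 23.7% in COM-4 to COM-6. Ms4a7 held 19.2% ± 4.10 in NC, 11.9% ± 0.987 in COM and 19.6% ± 0.430 in COM+Met, with 13.2 and 15.98% in NC-6 and NC-5 and 19.5 to 24.9% in the other NC samples. Ms4a4a held 2.58% ± 1.69, 4.65% ± 0.995 and 1.49% ± 0.123, and within COM 4.99 to 5.93% in COM-1 to COM-3 and 3.47 to 4.08% in COM-4 to COM-6. By level the order in COM was Ms4a6d, then Ms4a4c, Ms4a6c and Ms4a7, whose ranges overlapped, then Ms4a4a, whose highest sample (77.1 FPKM) just passed the lowest of Ms4a4c (76.5 FPKM), then Ms4a6b and Ms4a14, which overlapped through COM-6, and finally Ms4a4b and Ms4a8a, which overlapped as well.

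The family holds 14 further genes in the table, including Tmem176a and Tmem176b, related genes outside the cluster that encode membrane proteins of myeloid cells. Of the 14, 5 were listed at 0 in every sample, 6 were above 0 without reaching 1 FPKM in any sample, and 3 reached 1 FPKM. Ms4a1 was at most 0.276 FPKM, and of 5 B cell markers, which summed to 3.32 to 6.62 FPKM over the 18 samples, Cd22 alone averaged 1 FPKM or more. Ms4a2 was at 0.153 to 0.595 FPKM in NC and at 0 in all COM and COM+Met samples, and Ms4a3, a gene of granulocyte and monocyte progenitors, was at 0.303 to 0.628 FPKM in NC and at most 0.0992 in the other groups. Ms4a4d, which lies between Ms4a6b and Ms4a6d, reached 1.62 FPKM in COM-6 and no more than 0.826 FPKM elsewhere.

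Tmem176a and Tmem176b passed the filter and, being outside the chosen members, were tested. Tmem176a rose from a mean of 2.31 ± 1.41 FPKM in NC to 8.67 ± 3.86 in COM (SD, n = 6 each), a log2 difference of 1.58 (SE 0.36, limma adjusted p = 0.00305), although the groups overlapped. Tmem176b rose from 2.75 ± 1.69 to 8.73 ± 4.15 FPKM, a log2 difference of 1.43 (SE 0.39, limma adjusted p = 0.00849). Both split within COM in the direction opposite to Ms4a4c. Tmem176a stood at 11.2 to 13.0 FPKM in COM-1 to COM-3 and 3.42 to 7.35 FPKM in COM-4 to COM-6. Tmem176b stood at 12.0 to 12.9 and 4.29 to 6.33 FPKM in the same subsets. NC-1 to NC-4 lay at 2.74 to 3.70 FPKM for Tmem176a and 3.40 to 4.19 FPKM for Tmem176b. Without NC-5 and NC-6 the difference of Tmem176b was 0.89, short of 2-fold, and with a pseudocount of 5 neither was 2-fold, at 0.87 for Tmem176a and 0.80 for Tmem176b. In COM+Met against COM neither passed the threshold, with limma adjusted p = 0.221 for Tmem176a and 0.363 for Tmem176b. Without COM-4, COM-5 and COM-6 the difference of Tmem176a was -1.02 and was called. Against NC, both were higher in COM+Met, by 1.09 for Tmem176a (SE 0.28, limma adjusted p = 0.00373) and 1.02 for Tmem176b (SE 0.33, limma adjusted p = 0.0140), and neither reached 2-fold without NC-5 and NC-6, at 0.61 and 0.49.

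Genes of 7 proteins reported to work with Ms4a proteins were tested as well. In COM against NC 6 of the 7 passed the filter and 1 was called, beside 17.7% of all genes tested. An adjusted p below 0.05 was found for 4 of the 6, a share that was not counted over all genes. Fcer1g, the signalling chain shared by Fc receptors, rose from a mean of 685 to 1504 FPKM, with a log2 difference of 1.13 (SE 0.10, limma adjusted p = 2.73e-06), or 0.83 and short of 2-fold with quantile normalisation. The other 3 were short of 2-fold, with log2 differences of -0.89 for Tyrobp, the adaptor of TREM2, 0.46 for the kinase gene Syk and -0.58 for Tnfrsf18 (limma adjusted p = 0.0121, 0.0119 and 0.0115). Tyrobp was at 158 FPKM in COM-6 and 465 to 535 FPKM in the other COM samples, and without COM-6 its difference was -0.61 (limma adjusted p = 4.95e-05). With quantile normalisation Tyrobp reached 2-fold and was called lower (-1.03, limma adjusted p = 0.00224). Without NC-5 and NC-6 Syk no longer passed (0.40, limma adjusted p = 0.0578), and without COM-4 to COM-6 neither did Tnfrsf18 (-0.53, limma adjusted p = 0.0774).

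Clec7a, which encodes dectin-1, split within COM in the direction opposite to Ms4a4c. It stood at 525 to 638 FPKM in COM-1 to COM-3 and at 143 to 220 FPKM in COM-4 to COM-6, the latter below every NC sample, which lay between 350 and 580 FPKM. The mean difference of -0.63 (limma adjusted p = 0.180) therefore describes neither subset, and it was 0.25 without COM-4 to COM-6 (limma adjusted p = 0.229). Trem2 was at 35.4 FPKM in COM-6 and 144 to 171 FPKM in the other COM samples, beside 120 to 185 FPKM in NC. Its difference was -0.37 (limma adjusted p = 0.359), and -0.03 without COM-6.

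In COM+Met against COM 5 partner genes were tested, and with all samples 0 had a limma adjusted p below 0.05. This depended on the COM samples as well. Without COM-4 to COM-6 Clec7a was called lower (-1.34, limma adjusted p = 1.70e-05), and Trem2 (0.44) and Syk (0.25) passed the adjusted p without reaching 2-fold. Against NC, 6 of 6 tested had an adjusted p below 0.05 in COM+Met, again without a share over all genes. Of these, 1 was called higher and 1 lower, beside 5.66% and 13.6% of all genes tested. Fcer1g was called higher, at 1386 FPKM, with a log2 difference of 1.02 (SE 0.05, limma adjusted p = 1.74e-09), or 0.96 without NC-5 and NC-6. Clec7a was called lower, at 230 FPKM, with a difference of -1.08 (SE 0.16, limma adjusted p = 3.73e-05). The differences of Syk (0.72), Trem2 (0.38), Tyrobp (-0.57) and Tnfrsf18 (-0.97) were short of 2-fold.

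Genes on either side of the cluster were looked up next. Of the 5 protein-coding genes on each side, 4 of 10 were expressed above the filter. In COM against NC 0 of these 4 were called higher and 1 lower, beside 5.99% and 11.7% of all genes tested. So few genes cannot be set apart from those shares. Tmem109, on the side of Ms4a10, fell in COM from 24.6 to 10.9 FPKM, with a log2 difference of -1.10 (SE 0.22, limma adjusted p = 0.00132), and it was short of 2-fold without COM-6 (-0.92), without NC-6 (-0.998) and without NC-5 and NC-6 (-0.85). The differences of Prpf19 (-0.65), Ccdc86 (0.59) and Mrpl16 (-0.42) were short of 2-fold. Gm8369, a protein-coding gene between Ms4a6c and Ms4a6b, was below the filter, with means of 0.0788 FPKM in NC, 1.08 in COM and 0.661 in COM+Met.

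Among 10741 genes outside the family, those whose centred log2(FPKM + 1) values over the 18 samples lay nearest to each member were looked up, by the root mean square (RMS) difference. For Ms4a4c these were Ifit3 (RMS 0.47) and Ifi205 (0.48), for Ms4a6c Gbp2 (0.27), and for Ms4a7 Irgm1 (0.21), all known as interferon-inducible. Ddx60 (0.21) was nearest to Ms4a6b, and Siglece, an inhibitory lectin, to Ms4a6d (0.18). Kat2b (0.13) was nearest to Ms4a4b, Mcf2l (0.31) to Ms4a8a, and a gene without a symbol (0.26) to Ms4a14. Ms4a4a was nearest to U90926 (0.47) and Ly6a (0.48), and both of these had lower means in COM+Met than in COM, at 13.9 beside 47.9 FPKM and 116 beside 284 FPKM. The 18 points share 3 groups and the subsets above, and the measure carries no test. The 13 interferon-stimulated reference genes were called higher in COM than in NC in 13 of 13 cases, beside 5.99% of all genes tested. Their median log2 difference was 5.15 beside -0.27 over all genes tested. For Cxcl10 the groups overlapped. It stood at 14.9 to 17.6 FPKM in COM-1 to COM-3 and 481 to 544 FPKM in COM-4 to COM-6, beside 12.5 to 24.2 FPKM in NC-1 to NC-4. In COM+Met against COM 0 of 13 were called in either direction, beside 2.22% of all genes tested, with a median of 0.49 beside 0.0033.

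Markers of other cells moved with the groups as well. The monocyte list of 4 genes summed to 27.2 to 253 FPKM in NC, 760 to 1814 in COM and 276 to 331 in COM+Met, and Ly6c2 made up most of it, at a mean of 152, 1321 and 295 FPKM. Ly6c2 rose in COM by 3.55 on the log2 scale (SE 0.62, limma adjusted p = 0.000435), or 2.55 without NC-5 and NC-6, and fell by 2.06 in COM+Met against COM (SE 0.23, limma adjusted p = 0.00021). Within COM the order of Ly6c2 was the reverse of that of Ms4a4c, at 1762 to 1809 FPKM in COM-1 to COM-3 and 747 to 998 FPKM in COM-4 to COM-6. The rest of the list did not move as one. Plac8 rose in COM by 1.69 and fell by 2.36 in COM+Met against COM, while Ccr2, the receptor of recruited monocytes, fell by 2.79 in COM (SE 0.28, limma adjusted p = 6.16e-06), from a mean of 8.24 to 0.187 FPKM, and stood at 0.055 FPKM in COM+Met. The dendritic cell list of 6 genes summed to 2.51 to 26.9, 63.9 to 225 and 38.7 to 76.2 FPKM, led by Ccr7, at a mean of 9.94, 133 and 55.7 FPKM. Clec9a went the other way, at a mean of 3.40, 2.37 and 0.764 FPKM. Of 4 dendritic cell genes tested in COM against NC, 2 were called higher and 0 lower, beside 5.99% and 11.7% of all genes tested. In COM+Met against NC 2 were tested. Ccr7 was called higher and Clec9a lower (-1.23, limma adjusted p = 0.000285), beside 5.66% and 13.6%. The neutrophil list of 11 genes summed to 550 to 1066, 1181 to 1859 and 734 to 856 FPKM, and 2 of the 11 were at 0 in all COM samples. Its higher sum in COM came from Lcn2, which rose from a mean of 23.5 to 1133 FPKM. Of 9 neutrophil genes tested in COM against NC, 1 was called higher and 4 lower, beside 5.99% and 11.7% of all genes tested. The 4 were S100a9 (-4.58), Ngp (-3.70), Ltf (-1.67) and Cxcr2 (-1.28). In COM+Met against COM 0 of 6 were called higher and 4 lower, beside 0.608% and 1.61% of all genes tested. The mast cell list of 6 genes summed to 7.31 to 17.0 FPKM in NC and at most 3.35 in the other groups, with Cpa3 at a mean of 10.6 FPKM in NC. Kit went the other way in COM, from a mean of 0.875 to 1.85 FPKM. Its log2 difference was 0.56 (SE 0.21, limma adjusted p = 0.0387), short of 2-fold. Tubular epithelial markers, 13 genes, summed to 10.9 to 18.2 FPKM in NC and at most 1.37 in the other groups, mostly from Cdh1. The part of these cells in the Ms4a levels was not tested.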

How the data were processed

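The 18 BMDM libraries were grouped by their labels into NC, COM and COM+Met, 6 each, and all sample columns were used. The authors deposited a table of FPKM values with a column per library. Bowtie 0.12.2, mm8 and mm9 appear in the submitters' processing notes with no role attached. The program that computed FPKM and its gene models were not given in the sources used here. Since FPKM is scaled to each sample's total, a gene falls when abundant genes rise, and the median gene was -0.27 on the log2 scale in COM against NC. Of 22036 Ensembl identifiers, 22022 were found in GENCODE M21, including those of the 9 members.

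Values were transformed to log2(FPKM + 1). Genes averaging 1 FPKM or more over both groups were fitted with limma 3.58.1 (trend) in R 4.3.3, each comparison in its own 12 samples, with Benjamini-Hochberg adjustment over all genes and a call at an adjusted p below 0.05 and 2-fold. The procedure was tested on simulated data. The members, gene lists and tests were chosen with earlier results of these data known. The genes named are the members, the other family genes, reported partners, neighbours of the cluster, interferon-stimulated and cell type marker lists, and the genes nearest to each member. From the longer lists those with the largest values, or on which a count turns, are named, and Gm8369, BE692007, Gm19261 and Gm5692 are named for their position. Alternatives were pseudocounts of 0.1 and 5, no filter, a filter of 5 FPKM, 3 other scalings (rescaling to the same sum, size factors and quantile normalisation), the replicate block, a fit of all 18 samples, sample weights, and samples left out. Sequence and plots used Python 3.11.15, pandas 2.3.3, numpy 2.4.6, Biopython 1.88 and matplotlib 3.10.9.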

Additional observations from a re-analysis of the deposited data

Results flagged for a closer look

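Ms4a14 stood out in COM-6, at 24.96 FPKM, since the gap to the next COM sample took up 0.961 of the range of the 6 samples. It stood out in COM+Met-1 as well, at 5.67 FPKM, below the other COM+Met samples, where the gap was 0.626 of the range. Both exceeded the 95% limit of Dixon's test for groups of 6. In all, 33 groups were examined, and chance gives about 1 in 20.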

How the results depend on the processing

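The number of members called higher in COM against NC, and in COM+Met against NC, was 7, and 6 with a pseudocount of 5, where Ms4a14 was lost, and 6 against NC for COM+Met with a filter of 5 FPKM, which Ms4a14 did not pass, and stayed within 1.5 times of 7 in every alternative run, and Ms4a4a stayed called lower in COM+Met against COM. The 1 member called lower in COM against NC, Ms4a8a, gave 0 with a pseudocount of 5 and with a filter of 5 FPKM. In COM+Met against NC it gave 0 with these and with quantile normalisation. The 0 members called higher in COM+Met against COM became 2, Ms4a4c and Ms4a7, with sample weights and without COM-4 to COM-6. With each replicate left out in turn the counts were 7 to 7 higher and 1 to 1 lower against NC for both comparisons, and 0 to 0 higher and 1 to 1 lower for COM+Met against COM. Outside the members, Clec7a turned to 0.25 in COM against NC without COM-4 to COM-6, Tyrobp to -0.0051 in COM+Met against COM without them, and Tmem109 to 0.0099 in COM+Met against NC with size factors. The cause of these shifts was not tested. Over all genes, COM against NC called 1926, or 980 with a pseudocount of 5, COM+Met against NC 2078 or 1117, and COM+Met against COM 230, or 370 with a pseudocount of 0.1, 90 with 5, 719 with sample weights and 771 without COM-4 to COM-6. Calls higher and lower in COM against NC were 653 and 1273, but 874 and 812 with size factors and 810 and 863 with quantile normalisation, and in COM+Met against NC 611 and 1467, but 849 and 976, and 820 and 979. Size factors moved the median gene in COM against NC from -0.27 to 0.0077.

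With the replicate number as a block, 7 members were called higher and 1 lower against NC in both comparisons, 0 higher and 1 lower in COM+Met against COM, and 1920, 2080 and 202 genes were called in all. Samples of the same number did not deviate together, with correlations of -0.114 to -0.026 for COM and NC, -0.222 to 0.034 for COM+Met and COM, and -0.106 to 0.057 for COM+Met and NC, and no sample correlated best with its own number. Unknown depth limits what can be said of Ms4a4b and Ms4a8a.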
